A study of Mus musculus with 23 samples.

Results

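Zbtb16, Fkbp5, Tsc22d3, Per1, Plin4, Maob and Akr1c14 are 7 of the 18682 features counted in mouse endometrium by bulk RNA sequencing. The first 6 are known as genes that glucocorticoids or progesterone can induce in various cells, and Akr1c14 encodes an enzyme that acts on steroids. They were chosen by name with earlier results of these horns known, so their levels and folds below are a description and carry no p-value. Each library came from 1 uterine horn of a female C57BL/6 mouse, whose endometrium had been pressed out of the muscle wall by hand. The 6 HG+ORG horns (replicates 18 to 23) received a hydrogel with human endometrial organoids, the 6 HG horns (12 to 17) the hydrogel alone and the 5 PBS horns (7 to 11) saline. These 3 groups shared an injury with 70° ethanol, an injection 4 days later and tissue collection 2 weeks after the injection. The sources used here do not say what the 6 SHAM horns (1 to 6) received. Nor do they give the age of the mice, the stage of the estrous cycle, the hour of collection or any steroid level.

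The labels name no animal for a horn. The design text gives 21 mice for the tissue work, fewer than the 23 horns, so some horns may share a mouse. If such horns are in the same group, p-values over horns are too small. If they are in different groups, p-values can be too large. Which of these holds is not known. Reads of surviving human cells cannot be told apart from mouse reads in the table. In whole tissue, fewer cells of a type and less RNA per cell cannot be told apart either. Total counts ran between 7920918 and 14902952 per horn. Epithelial markers were present in every horn, with a score (mean log2 CPM of 11 markers) between 6.16 and 10.26, and the lowest was HG+ORG replicate 18. That horn stood apart from its group, with a count difference of 364 to 451 chi-square units per degree of freedom from the other HG+ORG horns, which differed among themselves by 45.4 to 259. It also had the highest scores of macrophage markers (9.31) and neutrophil markers (8.57), so values are given with and without it. SHAM replicates 5 and 6 were the most alike pair of any group at 2.76 units, still above sampling noise, and were kept as 2 horns.

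Glucocorticoids and progesterone act through nuclear receptors that wait in the cell bound to Hsp90 chaperones, bind hormone, and then regulate genes through DNA elements made of repeated half-sites. The glucocorticoid and progesterone receptors can bind the same elements, so many target genes answer to both. In the uterus progesterone restrains estrogen-driven epithelial growth and prepares the stroma for implantation, and glucocorticoid action depends in part on enzymes that activate or inactivate the hormone.

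The known half-site was searched in the 250 bases upstream of transcription starts from RefSeq (build GRCm38.p6), a build other than the one the reads were aligned to. Promoter windows were matched by symbol for 5 of the 7 genes, in 8 windows. Zbtb16 and Maob had no entry. The half-site AGAACA, read on both strands and so also as TGTTCT, stood in 1 of the 8 windows, that of a Tsc22d3 start, and 16.1% of all 32851 windows hold it. The palindrome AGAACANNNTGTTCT, which contains the half-site on each strand, stood in none of the 8 and in 0.00913% of all windows. The E-box CACGTG, the element of the circadian clock proteins and the same on both strands, stood in an Fkbp5 and a Per1 window and in 6.02% of all windows. The 3 windows with a match are shown 5′ to 3′ on the gene's strand, with the match in capitals. They lie at chr17:28486150-28486399 (Fkbp5, minus strand, match starting 169 bases upstream), chr11:69098699-69098948 (Per1, plus strand, 166 bases) and chrX:140600523-140600772 (Tsc22d3, minus strand, 185 bases).
Fkbp5: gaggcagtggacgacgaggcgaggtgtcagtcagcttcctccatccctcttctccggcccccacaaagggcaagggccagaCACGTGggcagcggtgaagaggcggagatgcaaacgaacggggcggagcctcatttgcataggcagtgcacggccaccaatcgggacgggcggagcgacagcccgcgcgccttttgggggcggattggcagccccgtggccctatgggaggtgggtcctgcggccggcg
Per1: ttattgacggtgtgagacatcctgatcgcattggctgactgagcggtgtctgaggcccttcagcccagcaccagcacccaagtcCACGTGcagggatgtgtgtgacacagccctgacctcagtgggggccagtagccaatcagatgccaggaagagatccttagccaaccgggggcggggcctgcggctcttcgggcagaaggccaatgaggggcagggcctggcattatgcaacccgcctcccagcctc
Tsc22d3: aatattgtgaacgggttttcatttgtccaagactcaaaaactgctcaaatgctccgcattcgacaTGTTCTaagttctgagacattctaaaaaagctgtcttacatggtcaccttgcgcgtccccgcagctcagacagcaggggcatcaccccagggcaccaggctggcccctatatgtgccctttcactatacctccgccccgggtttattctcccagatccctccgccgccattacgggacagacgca
A match is a string of letters in a window and does not show that a receptor or clock protein binds there.

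**Figure D1:**
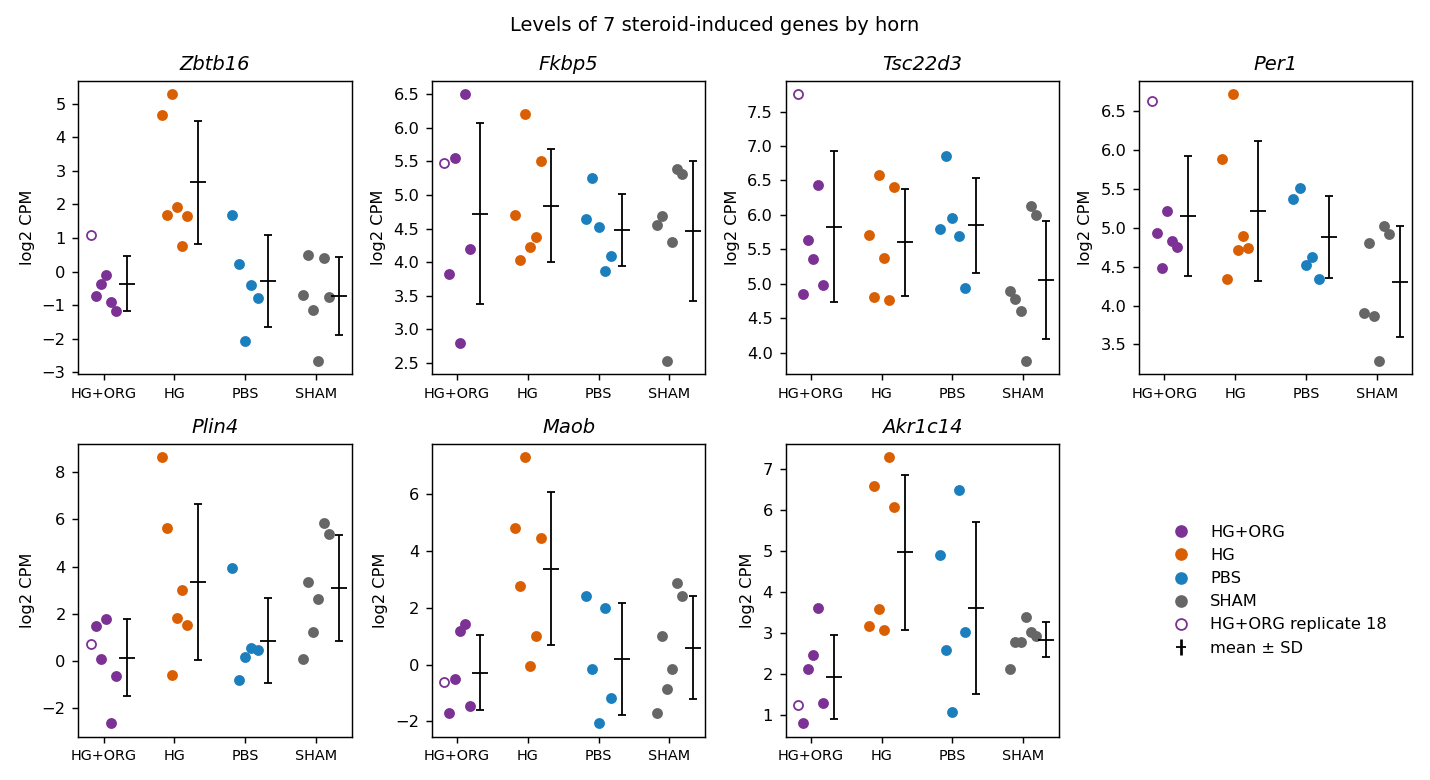
Level of each of the 7 genes (log2 CPM, y axis) in every horn of the HG+ORG, HG, PBS and SHAM groups (x axis). Points are horns, the open circle is HG+ORG replicate 18, and bars are the group mean ± SD over 6, 6, 5 and 6 horns. The 6 HG horns of Zbtb16 sit between 0.75 and 5.28, above every SHAM horn, while the groups of Fkbp5 overlap throughout.

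Zbtb16 encodes PLZF, a zinc finger repressor of transcription that progesterone and glucocorticoids induce in human endometrial stromal cells. Its level in HG+ORG horns had a lowest, median and highest value of 0.279, 0.531 and 1.98 CPM (reads of a gene after scaling for library size). In HG horns these values were 1.52, 3.35 and 38.8 CPM. PBS replicates 7 to 11 had 3.02, 1.01, 0.0804, 0.601 and 0.422 CPM. HG horns thus reached far above the others, and the SHAM horns had a lowest, median and highest value of 0, 0.446 and 1.23 CPM. The SHAM horn at 0 was replicate 4, where 3 counts would have been 0.37 CPM. HG horns stood above every SHAM horn, and 4 of the 6 stood above every PBS horn.

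HG replicates 14 (38.8 CPM) and 12 (25 CPM) were far above the other 4 HG horns, which lay between 1.52 and 3.64 CPM. The highest HG+ORG horn was replicate 18, and without it that group reached 0.77 CPM, below every HG horn. Mean log2 CPM (± SD) was -0.37 ± 0.82 in HG+ORG, 2.66 ± 1.84 in HG, -0.27 ± 1.37 in PBS and -0.73 ± 1.15 in SHAM horns. HG was the highest group, and the other 3 lay within 1 SD of one another. The fitted log2 fold was -4.10 (SE 0.93) for HG+ORG vs HG, 3.58 (SE 0.96) for HG vs PBS and 4.33 (SE 0.93) for HG vs SHAM. Leaving out 1 horn at a time gave -4.66 to -3.32 for HG+ORG vs HG and 3.54 to 4.66 for HG vs SHAM. Zbtb16 passed the low-count filter through its HG horns: a filter over the horns of HG+ORG and PBS, HG+ORG and SHAM, or PBS and SHAM alone would have removed it.

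Fkbp5 encodes FKBP51, an Hsp90 co-chaperone that lowers the affinity of the glucocorticoid receptor for hormone and is itself a common readout of glucocorticoid action. In HG+ORG horns its lowest, median and highest values were 6.82, 31.1 and 90.5 CPM, and in HG horns 16.2, 23.3 and 73.2 CPM. In PBS replicates 7 to 11 it had 24.9, 38, 22.8, 14.4 and 16.9 CPM. SHAM horns had a lowest value of 5.63, a median of 24.4 and a highest value of 41.8 CPM. The ranges overlapped in every pair of groups, and the widest spread was within HG+ORG, from replicate 21 to replicate 22. Mean log2 CPM was 4.72 ± 1.35 in HG+ORG, 4.84 ± 0.84 in HG, 4.48 ± 0.54 in PBS and 4.46 ± 1.04 in SHAM horns, so no neighbouring groups differed beyond their spread. The 6 fitted log2 folds lay between -0.15 (PBS vs SHAM, SE 0.56) and 0.65 (HG+ORG vs PBS, SE 0.56). The lowest was 0.04 without SHAM replicate 5 and the highest 0.17 without HG+ORG replicate 22.

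Tsc22d3 encodes GILZ, a leucine zipper protein that glucocorticoids induce in lymphocytes and many other cells. HG+ORG horns had a lowest, median and highest level of 28.7, 45.2 and 215 CPM, and HG horns 26.9, 46.6 and 95.5 CPM. The PBS horns, in the order of replicates 7 to 11, had 55.6, 116, 62, 51.5 and 30.6 CPM, and SHAM horns had a lowest of 14.6, a median of 28.5 and a highest of 69.8 CPM. All pairs of groups overlapped. The highest horn of all 23 was HG+ORG replicate 18, and the next HG+ORG horn had 86 CPM. Without replicate 18 the fold of HG+ORG vs HG was -0.23 (SE 0.43), against 0.46 (SE 0.50) with it, and that of HG+ORG vs PBS was -0.41 (SE 0.44), against 0.25 (SE 0.52). Mean log2 CPM was 5.83 ± 1.09 in HG+ORG, 5.60 ± 0.78 in HG, 5.85 ± 0.69 in PBS and 5.05 ± 0.86 in SHAM horns. SHAM was the lowest group and within 1 SD of HG, the next lowest.

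Per1 encodes a repressor of the circadian clock whose transcription glucocorticoids also raise. Its lowest, median and highest values were 22.4, 29.3 and 99.9 CPM in HG+ORG horns and 20.1, 28.1 and 105 CPM in HG horns. In PBS replicates 7 to 11 it had 41.3, 45.5, 22.8, 24.5 and 20.1 CPM. In SHAM horns the values were 9.63, 21.4 and 32.6 CPM. The groups overlapped, and both top horns, HG replicate 14 and HG+ORG replicate 18, stood far above their own group's median. Mean log2 CPM was 5.15 ± 0.77 in HG+ORG, 5.22 ± 0.90 in HG, 4.88 ± 0.53 in PBS and 4.31 ± 0.71 in SHAM horns. The fitted log2 fold was 1.04 (SE 0.44) for HG vs SHAM, or 0.58 without HG replicate 14. That of HG+ORG vs SHAM was 0.91 (SE 0.44), or 0.42 (SE 0.39) without replicate 18. For HG+ORG vs HG it was -0.12 (SE 0.43), or -0.63 (SE 0.39) without replicate 18.

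Plin4 encodes perilipin 4, a coat protein of lipid droplets that is abundant in white fat. HG+ORG horns had a lowest, median and highest level of 0, 1.19 and 3.3 CPM, and HG horns 0.502, 5.58 and 403 CPM. PBS replicates 7 to 11 had 15.1, 0.404, 0.965, 1.29 and 1.2 CPM, and SHAM horns 0.905, 8.09 and 57.3 CPM as the lowest, median and highest. The groups overlapped in every pair, and the differences rested on few horns. HG replicates 12 (403 CPM) and 13 (49.5 CPM) and SHAM replicates 5 (57.3 CPM) and 6 (41.4 CPM) were high, while HG replicate 14, the highest horn of Zbtb16, had 0.502 CPM. The HG+ORG horn at 0 was replicate 22, where 3 counts would have been 0.222 CPM. Mean log2 CPM was 0.13 ± 1.63 in HG+ORG, 3.34 ± 3.31 in HG, 0.85 ± 1.81 in PBS and 3.09 ± 2.26 in SHAM horns. HG and SHAM were the higher pair, within 1 SD of each other. The fitted log2 fold was -5.75 (SE 1.56) for HG+ORG vs HG and 1.98 (SE 1.30) for HG vs SHAM. Without HG replicate 12 these were -3.14 and -0.62, so the sign of HG vs SHAM turned with that 1 horn. HG+ORG vs SHAM gave -3.77 (SE 1.44) and PBS vs SHAM -2.36 (SE 1.42), or -4.35 without PBS replicate 7.

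Maob encodes monoamine oxidase B, an enzyme of the outer mitochondrial membrane that breaks down phenethylamine and dopamine. Its lowest, median and highest values were 0.149, 0.52 and 2.52 CPM in HG+ORG horns and 0.808, 14.2 and 158 CPM in HG horns. PBS replicates 7 to 11 had 5.22, 0.741, 0.0804, 3.78 and 0.282 CPM, and SHAM horns had a lowest of 0.151, a median of 1.3 and a highest of 7.17 CPM. HG replicates 14 (158 CPM), 12 (27.4 CPM) and 17 (21.8 CPM) exceeded every horn of the other groups, whereas HG replicates 13, 15 and 16 overlapped with them at 6.69, 0.808 and 1.87 CPM. Mean log2 CPM was -0.28 ± 1.31 in HG+ORG, 3.38 ± 2.69 in HG, 0.20 ± 1.96 in PBS and 0.60 ± 1.82 in SHAM horns. HG was the highest group and the other 3 lay within 1 SD of one another. The fitted log2 fold was -5.17 (SE 1.30) for HG+ORG vs HG, 4.15 (SE 1.32) for HG vs PBS and 3.79 (SE 1.20) for HG vs SHAM. Without HG replicate 14 they were -3.55, 2.53 and 2.17. Maob would not have passed the filter over HG+ORG and SHAM horns alone.

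Akr1c14 encodes a mouse 3-alpha-hydroxysteroid dehydrogenase, which converts reduced androgens and progestins. The Akr1c genes are similar in sequence, and the sources used here do not say how reads that fit several of them were counted, so its values are uncertain. HG+ORG horns had a lowest, median and highest level of 1.57, 3.23 and 11.9 CPM, and HG horns 8.24, 39.2 and 156 CPM. The PBS horns, in the order of replicates 7 to 11, had 29.8, 5.86, 1.93, 88.4 and 8.02 CPM, and SHAM horns had 4.15, 7.09 and 10.2 CPM as the lowest, median and highest. HG replicates 16, 13 and 17 and PBS replicate 10 were the 4 highest horns, and the SHAM horns were close together. Mean log2 CPM was 1.92 ± 1.03 in HG+ORG, 4.96 ± 1.89 in HG, 3.61 ± 2.10 in PBS and 2.83 ± 0.42 in SHAM horns. HG overlapped with each other group by 1 horn or more. The fitted log2 fold was -3.64 (SE 0.87) for HG+ORG vs HG, -2.54 (SE 0.85) for HG+ORG vs PBS and 3.00 (SE 0.85) for HG vs SHAM. PBS vs SHAM gave 1.90 (SE 0.84). Without PBS replicate 10, HG+ORG vs PBS gave -1.31 and PBS vs SHAM 0.67.

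**Figure D2:**
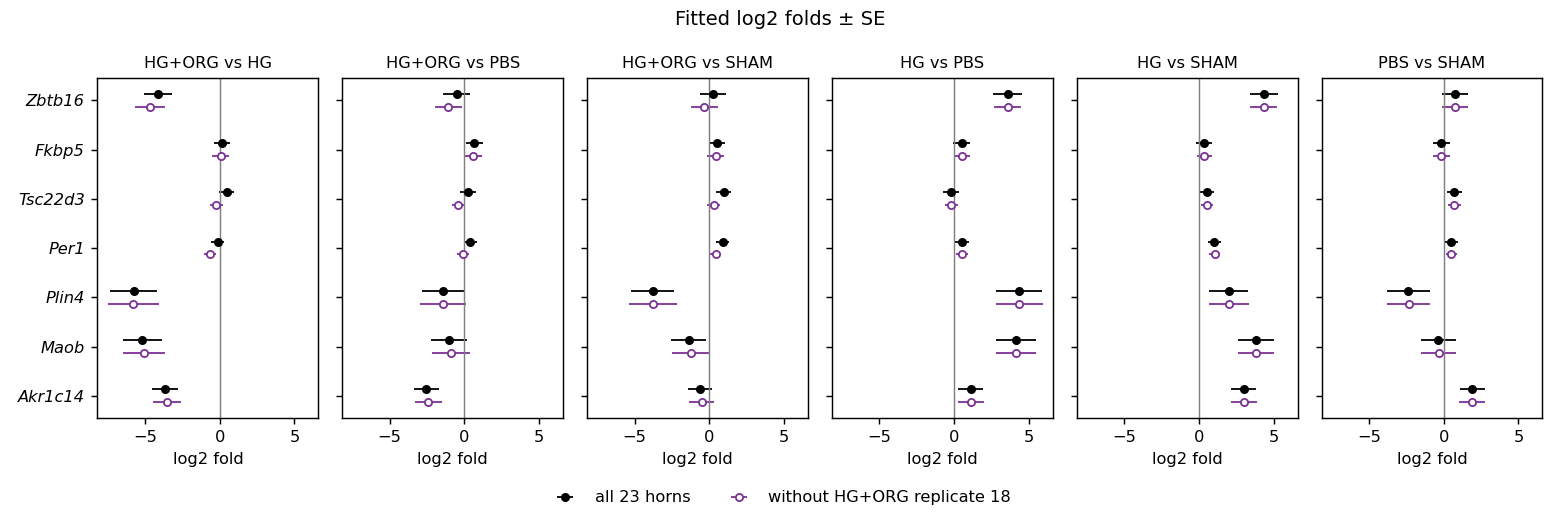
Fitted log2 fold of each gene (x axis) with its SE, in 6 panels, 1 per pair of groups. Black points use all 23 horns and open points leave out HG+ORG replicate 18. With all horns, the folds of Zbtb16, Plin4, Maob and Akr1c14 for HG+ORG vs HG lie between -5.75 and -3.64. Those of Fkbp5, Tsc22d3 and Per1 lie between -0.12 and 0.46. Without HG+ORG replicate 18 Fkbp5 has 0.06, Tsc22d3 -0.23 and Per1 -0.63 in that pair.

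In edgeR's quasi-likelihood fit with Benjamini-Hochberg adjustment, none of the 7 genes and 0% of the 17708 features tested passed 0.05 in any pair. The smallest adjusted p of any feature was 0.27 for HG+ORG vs HG, 0.709 for HG+ORG vs PBS, 0.209 for HG+ORG vs SHAM, 0.991 for HG vs PBS, 0.248 for HG vs SHAM and 1 for PBS vs SHAM. At an unadjusted p under 0.05, 4 of the 7 were lower and none higher for HG+ORG vs HG, where 9.81% of all features passed (4.63% lower, 5.18% higher). For HG vs SHAM 4 of 7 were higher and none lower, against 11.3% of all features (9.15% higher, 2.12% lower). For HG vs PBS 3 were higher and none lower, against 3.37% (2.38% higher, 0.988% lower). In these 3 pairs the members past that limit were Zbtb16, Plin4, Maob and Akr1c14, then Zbtb16, Per1, Maob and Akr1c14, then Zbtb16, Plin4 and Maob. HG+ORG vs PBS had Akr1c14 lower and none higher, against 6.09% (1.23% lower, 4.86% higher). PBS vs SHAM had Akr1c14 higher and none lower, against 2.17% (1.52% higher, 0.655% lower). HG+ORG vs SHAM had 1 higher and 1 lower, against 9.91% (8.09% higher, 1.82% lower). These same comparisons were known when the genes were chosen, so nothing is read from the counts. The pairs also share horns and are not separate evidence.

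The median fitted log2 fold of the 7 genes was -3.64 for HG+ORG vs HG, against 0.04 over all features. It was 1.98 for HG vs SHAM (0 over all features), 1.11 for HG vs PBS (0.02) and 0.51 for PBS vs SHAM (0.02). For HG+ORG vs PBS it was -0.52 (0.05), and for HG+ORG vs SHAM 0.23 (0.06), or -0.33 without HG+ORG replicate 18. Zbtb16 alone had no overlap between groups: its HG horns were all above its SHAM horns, as in 1.19% of all features, and without replicate 18 its HG+ORG horns were all below its HG horns, as in 0.808%. DESeq2, an alternative tool, called Zbtb16, Plin4, Maob and Akr1c14 lower for HG+ORG vs HG (0.92% of features called). It called Zbtb16, Maob and Akr1c14 higher for HG vs SHAM (1.59%). It called no member for HG+ORG vs SHAM (0.469%) or PBS vs SHAM (0.00565%), nor for HG+ORG vs PBS and HG vs PBS (0% each). Without HG+ORG replicate 18, DESeq2 called the same 4 members for HG+ORG vs HG (3.98%) and the same 3 for HG vs SHAM (5.4%), and no member for PBS vs SHAM (0.0113%) or the other pairs. edgeR fitted on the HG and SHAM horns alone called Zbtb16 (2.38%), and limma-voom called no feature in any pair. The genes were chosen with these comparisons known, so nothing is read from calls of members by any tool. Zbtb16 also passed the low-count filter through its HG horns, the group where it was high.

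**Figure D3:**
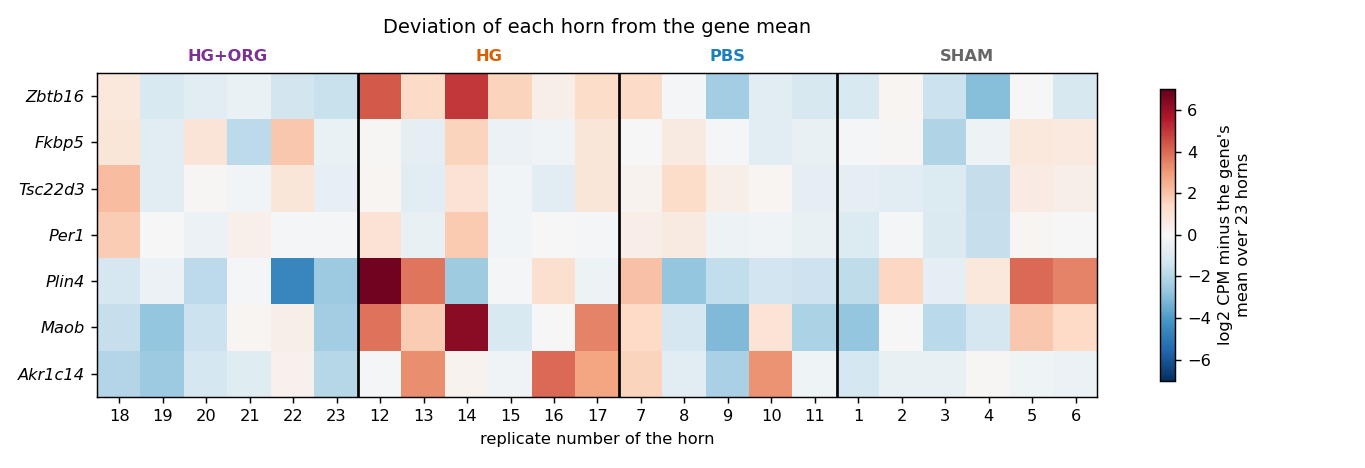
Deviation of each horn (columns, by replicate number within HG+ORG, HG, PBS and SHAM) from the gene's mean log2 CPM over 23 horns (colour), for the 7 genes (rows). Zbtb16, Per1 and Maob are highest in HG replicate 14, Plin4 in HG replicate 12 and Akr1c14 in HG replicate 16, so the high horns differ between genes.

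The 7 genes did not move as 1 block over the horns. All correlations here are Pearson r of log2 CPM over 23 horns, given as a description, and horns of a group share their treatment. Zbtb16 and Maob had r = 0.78 (Spearman 0.67), or 0.56 without HG replicates 14 and 12, and 0.66 after each group's mean was taken off. Zbtb16 and Per1 had r = 0.71 (Spearman 0.55), 0.52 without the same 2 horns and 0.84 within groups. Tsc22d3 went with Per1 (r = 0.76, Spearman 0.63, 0.58 without HG+ORG replicate 18 and SHAM replicate 4, 0.75 within groups) and with Fkbp5 (r = 0.66, Spearman 0.71, 0.62 without SHAM replicate 3 and HG+ORG replicate 22, 0.69 within groups). Maob and Akr1c14 had r = 0.53 (Spearman 0.73, 0.72 without HG replicates 14 and 12) but 0.29 within groups. Plin4 had r between -0.20 and 0.41 with the other 6, and Akr1c14 had r between -0.11 and 0.30 with all but Maob. Zbtb16 and Fkbp5, both used as receptor readouts, had r = 0.32, or 0.16 without HG replicates 14 and 12.

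**Figure D4:**
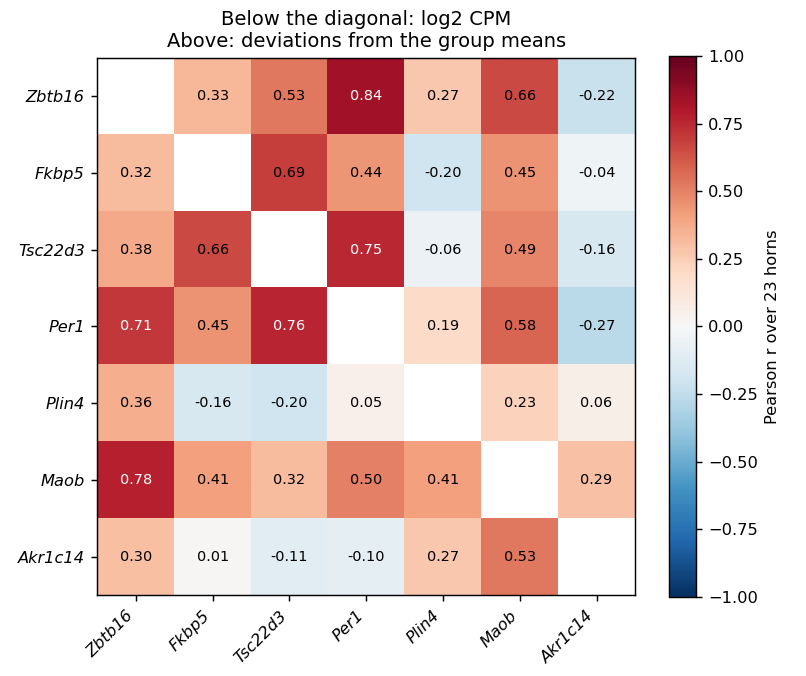
Pearson r between the 7 genes (rows and columns) over 23 horns, from log2 CPM below the diagonal and from deviations from the group means above it. Zbtb16, Per1, Tsc22d3, Fkbp5 and Maob have positive r with one another, between 0.32 and 0.84, while Plin4 and Akr1c14 have r near 0 or below with Tsc22d3 and Fkbp5.

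Markers of other cell types differed widely between horns and moved with several of the 7 genes. The score of 12 adipocyte markers ran from -0.64 to 3.69 in HG+ORG horns, from -0.44 to 9.60 in HG, from -1 to 5.78 in PBS and from -0.25 to 7.41 in SHAM. Plin4, which is not in that list, had r = 0.93 with it (Spearman 0.90), 0.89 without HG replicate 12 and SHAM replicate 5 and 0.94 within groups. Adipoq, the fat hormone adiponectin, was at 0 in 8 horns, Plin1 in 9 and Lep in 11, and all markers but Lpl and Cd36 were highest in HG replicate 12, where Plin4 was highest too. The fitted folds of the 12 adipocyte markers had a median of -6.02 for HG+ORG vs HG, with 7 lower at an unadjusted p under 0.05 (4.63% of all features) and none past adjustment in edgeR. DESeq2 called Car3 lower in that pair, and without HG+ORG replicate 18 it called 5 of the 12 lower. The part of fat tissue in the Plin4 values was not tested.

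Akr1c14 had r = 0.82 with the score of 12 smooth muscle markers (Spearman 0.63), 0.73 without HG replicates 16 and 13 and 0.76 within groups. That score ran from 0.56 to 4.3 in HG+ORG, from 2.57 to 7.57 in HG, from -0.07 to 6.67 in PBS and from 1.71 to 3.11 in SHAM horns. Its 4 highest horns, HG replicates 16, 17 and 13 and PBS replicate 10, were also the 4 highest of Akr1c14. Myocd, a defining regulator of smooth muscle, was at 0 in 9 horns and the other 11 markers in none. All 12 markers had a fold above 0 for HG vs SHAM, with a median of 3.76, and 12 had an unadjusted p under 0.05 (9.15% of all features were higher), but none passed adjustment in edgeR. DESeq2 called 10 of them higher in that pair and 4 lower for HG+ORG vs HG, and edgeR on the HG and SHAM horns alone called 7 higher. The part of smooth muscle in the Akr1c14 values was not tested.

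Maob had r = 0.76 with pericyte markers (7 genes, Spearman 0.76), 0.75 with endothelial markers (9 genes, Spearman 0.78) and 0.68 with stromal markers (10 genes, Spearman 0.74). Without HG replicates 14 and 12 these were 0.73, 0.71 and 0.68. The endothelial score ran from -0.06 to 5.44 in HG+ORG, from 2.74 to 6.25 in HG, from -0.73 to 5.84 in PBS and from 0.47 to 3.31 in SHAM horns. The pericyte score had ranges of -0.84 to 4.09 in HG+ORG, 0.67 to 4.70 in HG, -1.30 to 4.52 in PBS and -0.79 to 2.39 in SHAM horns. The mean endothelial score was 1.99 in HG+ORG, 4.78 in HG, 2.20 in PBS and 1.80 in SHAM horns. HG+ORG replicate 18 had an endothelial score of 5.44 and a Maob level of 0.495 CPM. Zbtb16 had r = 0.72 with 7 T and NK cell markers (Spearman 0.75, 0.72 without HG replicates 14 and 12) and 0.70 with endothelial markers (Spearman 0.71, 0.68 without them). The T and NK cell score ran from -0.27 to 1.96 in HG+ORG, from 0.34 to 2.35 in HG, from -1.21 to 0.82 in PBS and from -1.84 to 0.61 in SHAM horns. Its highest horn, HG replicate 14, was the highest of Zbtb16. The part of these cells in the 2 genes was not tested.

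Fkbp5, Tsc22d3 and Per1 went against the epithelial score of 11 markers, but not against the scores of gland or ciliated cell markers. Tsc22d3 had r = -0.79 with it (Spearman -0.82), -0.67 without HG+ORG replicate 18 and SHAM replicate 4. Fkbp5 had r = -0.68 (Spearman -0.82), -0.67 without SHAM replicate 3 and HG+ORG replicate 22, and Per1 -0.73 (Spearman -0.57), -0.43 without HG replicate 14 and HG+ORG replicate 18. Without HG+ORG replicate 18 alone, r was -0.69 for Tsc22d3, -0.84 for Fkbp5 and -0.64 for Per1. Zbtb16 had -0.45 and Maob -0.28 with all horns, or -0.60 and -0.63 without that horn. Plin4 had 0.14 and Akr1c14 0.05, or 0.10 and -0.23 without it. The epithelial score ran from 6.16 to 10.20 in HG+ORG, from 7.74 to 9.43 in HG, from 8.76 to 9.42 in PBS and from 8.89 to 10.26 in SHAM horns, and none of its 11 markers was at 0 in any horn. With the score of 3 uterine gland markers, r was 0.38 for Tsc22d3, 0.43 for Per1 and 0.46 for Fkbp5. Without HG+ORG replicate 18 these were 0.64, 0.66 and 0.54. With the score of 6 oviduct and ciliated cell markers, r was 0.58, 0.67 and 0.53 in the same order, or 0.69, 0.77 and 0.55 without that horn. The part of the epithelial share of the tissue, or of its kinds of epithelial cell, was not tested.

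**Figure D5:**
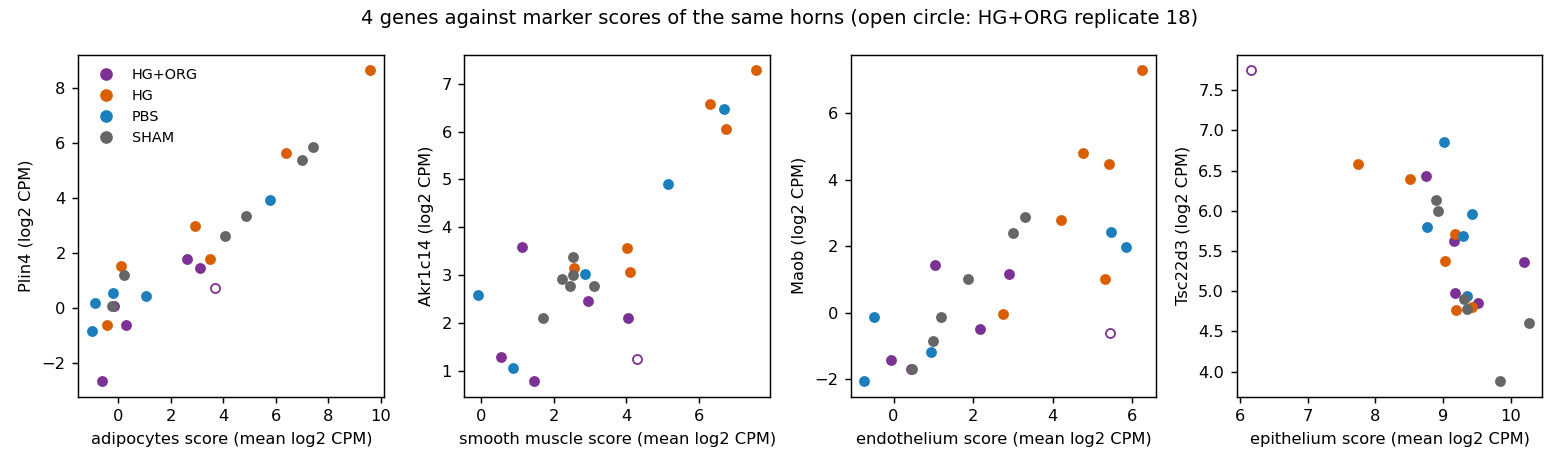
Level of Plin4, Akr1c14, Maob and Tsc22d3 (log2 CPM, y axes) against the score of adipocyte, smooth muscle, endothelial and epithelial markers (mean log2 CPM, x axes) in the 23 horns, coloured by group. Plin4 and the adipocyte score lie near 1 line (r = 0.93), and Tsc22d3 runs against the epithelial score (r = -0.79), with HG+ORG replicate 18 at the far left of that panel.

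The genes with the most similar pattern were taken as the 3 with the highest Pearson r of log2 CPM over the 22 horns other than HG+ORG replicate 18. For Zbtb16 they were Klf9 (r = 0.87), Gpr146 (0.84) and Rab34 (0.83), and Klf9 is a transcription factor that glucocorticoids and progesterone are known to induce. For Per1 they were Cry2 (0.92), another repressor of the clock, Iqsec1 (0.88) and Slc25a42 (0.88). Plin4 had B3galt2 (0.95), Apol6 (0.95) and Mrap (0.94), which encodes the melanocortin 2 receptor accessory protein of adrenal and fat cells. Maob had Fmo1 (0.94), Pth1r (0.94) and Gnai1 (0.93), and Akr1c14 had Wasf1, Spon2 and Snai2 (0.92 each). Fkbp5 had Psip1 (0.96), Tbccd1 (0.95) and Elmo2 (0.94). Tsc22d3 had Ncald (0.90), Cyp4x1 (0.90) and Slc2a12 (0.89), but only 0.68, 0.53 and 0.41 with all 23 horns.

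The receptors came next. Of 9 steroid receptor genes none passed adjustment in edgeR in any pair, and DESeq2 called 1 lower for HG+ORG vs HG and 1 higher for HG vs SHAM. Nr3c1, the glucocorticoid receptor, had a mean level of 4.82 ± 0.79 log2 CPM in HG+ORG, 5.44 ± 0.52 in HG, 4.94 ± 0.48 in PBS and 4.98 ± 0.36 in SHAM horns, and its log2 folds lay between -0.49 and 0.52. The fold of Nr3c1 for HG+ORG vs HG was -0.49 (SE 0.33), or -0.99 without HG+ORG replicate 18, where DESeq2 called it lower. Pgr, the progesterone receptor, had 7.10 ± 2.66 log2 CPM in HG+ORG, 7.98 ± 0.66 in HG, 8.69 ± 0.88 in PBS and 7.88 ± 1.40 in SHAM horns. Its fitted fold for HG+ORG vs HG was 0.18 (SE 0.73), or 0.42 without HG+ORG replicate 18. For HG+ORG vs PBS Pgr had -0.65 (SE 0.76), or -0.39 without that horn. Esr1, the estrogen receptor, had 7.49 ± 1.81 in HG+ORG and between 8.39 and 8.49 in the other groups. Its fitted fold for HG+ORG vs HG was -0.41 (SE 0.39), or -0.18 without HG+ORG replicate 18. For HG+ORG vs PBS Esr1 had -0.52 (SE 0.41), or -0.27 without that horn. Nr3c2, the mineralocorticoid receptor, had 0.49 ± 0.41 in HG+ORG and 1.58 ± 0.47 in PBS horns, a log2 fold of -1.19 (SE 0.37, adjusted p = 0.709).

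Of 12 chaperone and coregulator genes none passed in edgeR in any pair. Their median fold lay between -0.17 and 0.03. Fkbp4, which encodes the co-chaperone FKBP52 that promotes receptor activity, had log2 folds between -0.27 and 0.14 (the highest, for HG+ORG vs HG, was 0.31 without HG+ORG replicate 18) and a level of 8.99 ± 1.04 log2 CPM in HG+ORG, 9.11 ± 0.22 in HG, 9.36 ± 0.35 in PBS and 9.26 ± 0.43 in SHAM horns. The leading member for HG+ORG vs HG and for HG vs SHAM was the coactivator gene Ncoa3, with log2 folds of 0.37 (SE 0.12, adjusted p = 0.281) and -0.37 (SE 0.12, adjusted p = 0.264). DESeq2 without HG+ORG replicate 18 called Ncoa3 lower for HG vs SHAM.

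Of 28 other glucocorticoid receptor targets none passed in edgeR in any pair. For HG vs SHAM 8 were higher and none lower at an unadjusted p under 0.05, against 9.15% and 2.12% of all features, with a median fold of 0.34 (0 over all features). For HG+ORG vs HG 3 were higher and 2 lower, against 5.18% and 4.63%, with a median of -0.10, or -0.24 without HG+ORG replicate 18. DESeq2 called Klf9 higher for HG vs SHAM, and edgeR on those 2 groups alone called Sesn1. DESeq2 without HG+ORG replicate 18 called Glul, Klf9 and Sesn1 higher there, and Angptl4, Klf15 and Klf9 lower for HG+ORG vs HG. Klf9 led for HG vs SHAM, with 5.60 ± 1.00 in HG and 4.13 ± 0.56 in SHAM horns and a log2 fold of 1.68 (SE 0.47, adjusted p = 0.248). Its fold for HG+ORG vs HG was -1.44 (SE 0.47, adjusted p = 0.281). Sgk1, a kinase that both hormones induce, had folds between -0.78 and 0.93, and Dusp1, a phosphatase of MAP kinases, between 0.19 and 2.69. The largest fold of Dusp1, for HG+ORG vs SHAM, was 0.83 without HG+ORG replicate 18. Anxa1 (0.83, adjusted p = 0.273) and Cdkn1a (1.94, adjusted p = 0.281) led for HG+ORG vs HG, and without that horn Cdkn1a had 0.96. For HG+ORG vs HG and HG vs SHAM, Sgk1 had 0.60 (SE 0.57) and 0.16 (SE 0.57), and the 0.60 became -0.39 without HG+ORG replicate 18. In the same pairs Klf15 had -2.04 (SE 0.83) and 2.00 (SE 0.82), and Irs2 had -1.90 (SE 1.10) and 2.86 (SE 1.14). Of the 28 genes, 13 had a fold above 0 for HG+ORG vs HG and 17 for HG vs SHAM.

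Of 19 tested progesterone-responsive uterine genes none passed in edgeR either. At an unadjusted p under 0.05, 7 were lower and none higher for HG+ORG vs HG (4.63% and 5.18% of all features), with a median fold of -0.66. For HG vs SHAM 9 were higher and none lower (9.15% and 2.12% of all features), with a median of 1.68. DESeq2 called 5 lower for HG+ORG vs HG and 3 higher for HG vs SHAM, Hoxa10 and Hoxa11 among them in both pairs. Gli1, the Hedgehog transcription factor, had a log2 fold of -4.68 (SE 1.33, adjusted p = 0.27) for HG+ORG vs HG, and Hoxa11, a stromal homeobox gene, 3.16 (SE 1.02, adjusted p = 0.264) for HG vs SHAM. Hoxa10, Hoxa11 and Hand2 also stand in the stromal marker list. Of 10 stromal markers 8 were higher for HG vs SHAM at an unadjusted p under 0.05, again against 9.15% of all features, with a median fold of 2.80. Of 15 estrogen-responsive genes 2 were higher for HG vs SHAM, a share near the 9.15% of all features, and none in either direction for HG+ORG vs HG. Igf1 led with a fold of 2.87 (SE 1.03, adjusted p = 0.28) for HG vs SHAM, where edgeR on the 2 groups alone called it.

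Of 20 other steroid enzyme genes none passed in edgeR. DESeq2 called Hsd11b2 lower for HG+ORG vs HG, and edgeR on the 2 groups alone called Cyp7b1 higher for HG vs SHAM. DESeq2 without HG+ORG replicate 18 called Hsd11b2, Cyp1b1 and Cyp7b1 higher for HG vs SHAM. Hsd11b2, which inactivates glucocorticoids, led for HG+ORG vs HG with 2.27 ± 2.01 log2 CPM in HG+ORG and 5.34 ± 2.02 in HG horns and a log2 fold of -3.27 (SE 1.07, adjusted p = 0.281). For HG vs SHAM its fold was 2.70 (SE 1.04, adjusted p = 0.314). Hsd11b1, which regenerates active glucocorticoid, had folds between -0.05 and 0.26. Without HG+ORG replicate 18 they were -0.90 for HG+ORG vs HG, -0.74 for HG+ORG vs PBS and -0.64 for HG+ORG vs SHAM. Cyp1b1, an estrogen hydroxylase, led for HG vs SHAM with 4.54 (SE 1.63, adjusted p = 0.279). Akr1c18, which inactivates progesterone, had low levels of 0.84 ± 2.21 log2 CPM in HG+ORG, 0.39 ± 1.09 in HG and 1.56 ± 2.53 in SHAM horns. Its folds were 2.00 (SE 1.27) for HG+ORG vs HG and -3.13 (SE 1.32) for HG vs SHAM, both opposite in sign to those of Akr1c14. How reads that fit several Akr1c genes were counted is not known, so these values are uncertain too. Srd5a1, a steroid reductase that acts on progesterone and testosterone, had 0.21 (SE 0.55) and -1.07 (SE 0.56) for the same pairs, the 0.21 being 0.40 without HG+ORG replicate 18.

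The neighbours of the other members were measured in the same fit. Of 7 genes of monoamine breakdown none passed in edgeR, and Maoa, the sister enzyme of Maob, had 2.92 ± 1.29 in HG+ORG, 4.24 ± 1.38 in HG and 3.02 ± 0.55 in SHAM horns. Its log2 folds were -1.33 (SE 0.64, adjusted p = 0.514) for HG+ORG vs HG and 1.69 (SE 0.65, adjusted p = 0.315) for HG vs SHAM. Without HG+ORG replicate 18 Maoa had -2.19 for HG+ORG vs HG, and DESeq2 then called it lower in that pair and higher for HG vs SHAM. Of 14 lipid droplet genes tested none passed in edgeR. Plin1, the perilipin of fat cells, had a fold of -7.66 (SE 2.37, adjusted p = 0.273) for HG+ORG vs HG. Plin2, the perilipin found in most tissues, had 2.95 (SE 0.86, adjusted p = 0.27), or 0.23 without HG+ORG replicate 18. Plin4 had -5.75 (SE 1.56) in that pair, or -5.78 without that horn.

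Of 18 other clock genes none passed in edgeR. For HG vs SHAM 9 were higher and none lower at an unadjusted p under 0.05 (9.15% and 2.12% of all features), with a median fold of 0.70, led by the clock output genes Tef (1.91, SE 0.42, adjusted p = 0.248) and Hlf (3.05, SE 0.82, adjusted p = 0.248). For HG+ORG vs HG 4 were lower and none higher (4.63% and 5.18% of all features), with a median of -0.22, or -0.45 without HG+ORG replicate 18. DESeq2 called Dbp, Hlf and Tef higher for HG vs SHAM and Ciart higher for HG+ORG vs SHAM, and edgeR on the HG and SHAM horns alone called Hlf and Tef. Per2, the partner of Per1, had folds of 0.84 (SE 0.39, adjusted p = 0.425) for HG vs SHAM and -0.67 (SE 0.39, adjusted p = 0.643) for HG+ORG vs HG. Of 17 immediate early genes 6 were higher for HG vs SHAM at an unadjusted p under 0.05 (9.15% of all features), led by Egr3 (2.78, SE 0.83, adjusted p = 0.248), and none passed in edgeR. DESeq2 called Egr3 higher in that pair, or Egr1, Egr3, Klf2 and Nr4a1 without HG+ORG replicate 18, and edgeR on the 2 groups alone called Klf2 and Nr4a1. The 3 other TSC22 family genes had median folds between -0.11 and 0.07, and none had an unadjusted p under 0.05 in any pair.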

How the data were processed

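The values are raw counts of reads per gene, as the authors deposited them, from single-end reads of stranded poly(A) libraries. The submitters' processing notes list HISAT2 2.2.1 and the build GRCm39, featureCounts 2.0.3, SAMtools 1.21, Trimmomatic 0.39, DESeq2 1.42.1 under R 4.3.1, FastQC 0.11.9 and MultiQC 1.27.1. The sources used here do not give settings or annotation. Each of the 18682 features had at least 10 counts in at least 3 libraries, and 18341 had a symbol. Groups came from the library titles.

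The counts entered edgeR 4.0.16 (R 4.3.3) with TMM factors. Its filterByExpr by group left 17708 features and took out 974. A single quasi-likelihood fit held all 4 groups and no covariate, with Benjamini-Hochberg adjustment at 0.05 over all features. The SE was taken from the log2 fold and its F statistic. CPM use TMM library sizes, and log2 CPM a prior count of 2. The fit was tested on simulated data with the same spread set for every gene. That test does not measure power or error in these horns. Fitted folds compare mean counts and can differ in size or sign from differences of mean log2 CPM.

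The members and gene lists were chosen with earlier results of these data known. In each list the rule named genes past the threshold, or else the 2 with the smallest p, beside a fixed set of receptors and enzymes. They are given for the pairs HG+ORG vs HG and HG vs SHAM and for selected others. Some genes that the rule named are not reported here. Alternatives were DESeq2 1.42.0, limma-voom (limma 3.58.1), RLE factors, no filter, the 2 groups alone, a prior count of 0.5 and leaving out each horn. A floor of 3 counts covers counting error only.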

Additional observations from a re-analysis of the deposited data

Results flagged for a closer look

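Of 28 combinations of gene and group checked for a single horn far from the rest, 2 stood out, and chance alone gives about 1 in 20. Per1 in HG+ORG replicate 18 was at 6.64 log2 CPM, with the next horn of the group at 5.22, a gap of 0.66 of the group's range. The same horn had the lowest epithelial and the highest macrophage marker score of all horns, and the part of these in the Per1 value was not tested. Plin4 in PBS replicate 7 was at 3.93 log2 CPM, with the next PBS horn at 0.53, a gap of 0.71 of the range. That horn also had the highest adipocyte marker score of the PBS horns, 5.78, and its part in the Plin4 value was not tested.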

How the results depend on the processing

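The edgeR count of features called was 0 in each pair with RLE factors or no filter on low counts, and limma-voom also called none. DESeq2 called 163 for HG+ORG vs HG, 83 for HG+ORG vs SHAM, 281 for HG vs SHAM and 1 for PBS vs SHAM. DESeq2 without HG+ORG replicate 18, chosen after seeing the data, called 704, 1, 957 and 2 for the same pairs. It called the same 4 members for HG+ORG vs HG and the same 3 for HG vs SHAM as with all horns. The members were chosen with these comparisons known, so nothing is read from their calls. edgeR on the 2 groups alone called 386 for HG vs SHAM, Zbtb16 among them, and 0 in the other pairs. Leaving out 1 horn at a time gave 0 to 1 called for HG+ORG vs HG and 0 elsewhere, the 1 being Bnc2 without PBS replicate 10. The cause of these differences was not tested. Of the 42 member folds, all kept their sign and stayed within 1 SE with RLE factors, no filter and DESeq2. With limma-voom 37 stayed within 1 SE, Plin4 for HG vs SHAM was 0.13, and the sign changed for Tsc22d3 in HG+ORG vs PBS and Fkbp5 in HG+ORG vs HG. With DESeq2 without HG+ORG replicate 18 the sign changed for 4, Tsc22d3 in HG+ORG vs PBS and vs HG, Per1 in HG+ORG vs PBS and Zbtb16 in HG+ORG vs SHAM. On the 2 groups alone 38 could be fitted, since Zbtb16 was filtered out of 3 pairs and Maob of 1. A prior count of 0.5 moved no group level beyond 1 SD. No paired analysis was possible because the labels name no animal for a horn. Depth limits Zbtb16, Maob and Plin4 most, which had under 10 counts in several horns.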
